A study of Homo sapiens with 33 samples.

Results

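The promoters described here are those with the most H3K27me3 ChIP signal left in human embryonic stem cells (ESCs) that lack EZH2. Members were taken from a table of windows spanning 2.5 kb on either side of annotated transcription start sites. A window qualified when its H3K27me3 value in EZH2-/- ESCs was over 2.42 log2 RPM, which is 5.35 RPM (reads scaled to the size of the library), and at least 1 log2 unit above the EZH2-/- input. Only chromosomes 1 to 22 were used, and genes named ZNF, DUX4 or USP17 were left out. With the window of highest EZH2-/- signal kept for each gene name, 356 of 33883 promoters were members, which is 1.05%. They came from 618 qualifying windows and, because neighbouring windows overlap, form 312 loci when windows no more than 5 kb apart are joined. Members were thus selected on their EZH2-/- H3K27me3 and input values, which are given as a description with no test.

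H3K27me3 is the trimethylation of lysine 27 on histone H3, a mark of transcriptionally silent chromatin. It is laid down by Polycomb repressive complex 2 (PRC2), in which EZH2 or its paralogue EZH1 is the catalytic subunit and EED and SUZ12 are core partners. In ESCs the mark lies over CG-rich promoters of developmental regulators such as the HOX genes, often together with H3K4me3, a combination called bivalent. H3K27ac and H3K4me1 mark active regulatory elements and enhancers.

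All samples were H9 ESCs, an established human line, sorted for the surface marker SSEA4 after culture on irradiated mouse feeder cells. The 4 genotypes were EZH2+/+ (parental cells), EZH2-/+ (1 targeted allele), EZH2-/- and EZH2-/- +EZH2. The EZH2-/- line was made by retargeting EZH2-/+ cells that carried a doxycycline-inducible EZH2 transgene, and EZH2-/- +EZH2 is that line with doxycycline given. Targeted lines are clonal, so a difference between genotypes can also be one between clones. Native ChIP-seq of H3K27me3, H3K4me3, H3K27ac and H3K4me1 and input DNA was available in the 4 genotypes, crosslinked EZH2 ChIP-seq in EZH2+/+ only, and RNA-seq in 12 libraries, 3 per genotype. Each histone ChIP value is a mean of replicate libraries. The labels list 2, and the spacing of the lowest values in each column is that of a mean of 2, while a figure legend of the study gives a different number. The separate values were not used here, so no ChIP difference has a replicate error or a test.

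Mean depth per library, read back from the lowest value in each ChIP column, was 9.11 to 15.1 M reads for H3K27me3, and 3.43 M for EZH2+/+ H3K4me3, the shallowest. At the threshold, a window held 148 reads if the EZH2-/- mean is over the 2 listed libraries, whose counting interval (exact Poisson, 95%, counting error only) is 4.52 to 6.29 RPM. RNA libraries held 16587860 to 36589087 reads on genes. EZH2 transcript levels were 59.5 to 68.6 RPM in EZH2+/+, 45.7 to 55.4 for EZH2-/+, 8.65 to 11.5 in EZH2-/- and 256 to 385 in EZH2-/- +EZH2, in the order of the labels. EZH1 was 23.4 to 33.1 RPM in EZH2+/+, 17.6 to 25.9 for EZH2-/+, 8.54 to 14 in EZH2-/- and 13.5 to 15.3 with the transgene on. The 8 ESC markers examined summed to 2305 to 2950 RPM in EZH2+/+, 3180 to 3763 for EZH2-/+, 3484 to 3929 in EZH2-/- and 3434 to 3931 with the transgene on, while SOX2 alone was lower in EZH2-/- than in EZH2+/+ (limma adjusted p = 0.0026). The 5 mesoderm markers summed to 10.5 to 28 RPM in EZH2+/+, 2.78 to 41.4 for EZH2-/+, 82.0 to 157 in EZH2-/- and 12.9 to 73.0 with the transgene on. For the 5 endoderm markers the sums were 19.4 to 32.6, 11.5 to 94.8, 76.7 to 156 and 15.4 to 31.8 RPM in the same order.

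The members divided into 2 sets, which also differ in sequence, so a few sequences are printed first, with every CG dinucleotide in capitals. Of the 356 names, 122 were found in the RefSeq promoter table (GRCh38.p14), and 73 of these had a RefSeq start inside the member's own window. The first 4 lines are the matched members with the highest EZH2-/- signal, and PRDM12 and SKOR1 were added after their values were seen, as matched members with the highest EZH2 occupancy. Each line is the 250 bases before the start, on the + strand.
FANK1, chr10:125896314-125896563: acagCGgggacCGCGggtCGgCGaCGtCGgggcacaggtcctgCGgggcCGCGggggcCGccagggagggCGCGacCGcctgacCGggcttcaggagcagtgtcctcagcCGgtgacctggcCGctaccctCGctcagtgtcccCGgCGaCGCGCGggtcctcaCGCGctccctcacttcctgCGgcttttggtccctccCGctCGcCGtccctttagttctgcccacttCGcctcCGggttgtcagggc
LINC00960, chr3:75672031-75672280: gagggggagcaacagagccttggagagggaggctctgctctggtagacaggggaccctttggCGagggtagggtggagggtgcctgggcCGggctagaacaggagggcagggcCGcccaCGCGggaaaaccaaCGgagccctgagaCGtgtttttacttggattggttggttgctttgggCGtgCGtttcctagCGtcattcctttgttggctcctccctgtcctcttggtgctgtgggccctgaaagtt
FAM230C, chr13:18195047-18195296: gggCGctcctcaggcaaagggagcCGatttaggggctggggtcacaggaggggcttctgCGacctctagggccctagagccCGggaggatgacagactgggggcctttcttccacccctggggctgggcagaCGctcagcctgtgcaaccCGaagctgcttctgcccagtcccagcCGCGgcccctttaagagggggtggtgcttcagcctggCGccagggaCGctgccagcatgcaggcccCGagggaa
KIR2DL1, chr19:54769543-54769792: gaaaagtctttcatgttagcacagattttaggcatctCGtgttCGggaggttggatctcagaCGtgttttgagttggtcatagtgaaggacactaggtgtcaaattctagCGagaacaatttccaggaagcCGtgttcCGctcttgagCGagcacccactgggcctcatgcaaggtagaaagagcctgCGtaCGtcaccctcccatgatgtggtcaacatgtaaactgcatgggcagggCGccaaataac
PRDM12, chr9:130664344-130664593: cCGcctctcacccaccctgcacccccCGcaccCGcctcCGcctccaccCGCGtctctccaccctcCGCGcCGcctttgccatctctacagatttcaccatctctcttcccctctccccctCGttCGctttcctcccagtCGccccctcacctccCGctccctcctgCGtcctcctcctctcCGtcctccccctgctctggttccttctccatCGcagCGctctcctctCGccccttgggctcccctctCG
SKOR1, chr15:67825259-67825508: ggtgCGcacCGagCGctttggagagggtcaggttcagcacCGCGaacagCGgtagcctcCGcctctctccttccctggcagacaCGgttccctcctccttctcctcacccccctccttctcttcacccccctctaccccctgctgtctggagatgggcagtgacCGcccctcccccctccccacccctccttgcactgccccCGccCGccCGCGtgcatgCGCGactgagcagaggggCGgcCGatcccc

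FANK1, a gene expressed in testis, has 31 CG dinucleotides in these 250 bases. KIR2DL1, a receptor of natural killer cells, and LINC00960, a long noncoding RNA, have 10 each, and FAM230C has 11. PRDM12, a regulator of sensory neuron development, has 19, and SKOR1, a transcriptional corepressor of the nervous system, has 17. H3K27me3 at PRDM12 was 53.6 RPM in EZH2+/+ and 7.36 in EZH2-/-. At SKOR1 it was 41.3 and 7.28 RPM. At KIR2DL1 the order was the opposite, with 5.83 RPM in EZH2+/+ and 8.64 in EZH2-/-, and FAM230C had 4.97 and 9.03 RPM.

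H3K27me3 was at least 1 log2 unit lower in EZH2-/- than in EZH2+/+ at 45 members, called reduced here, and this was the case at 37.1% of all promoters. The other 311 members are called not reduced. Of these, 302 were higher in EZH2-/- (28.6% of all promoters) and 82 were higher by 1 log2 unit or more (4.6% of all promoters). Since the selection and this division both use EZH2-/- H3K27me3, the counts are read as a description. The division was set after the values were seen and falls in a gap: the reduced members changed by -3.40 to -1.33 on the log2 scale and the rest by -0.94 to 1.90. Reduced members had a median of 48.4 RPM in EZH2+/+ (95% binomial interval of the median 44.5 to 50.9) against 5.97 RPM in EZH2-/- (5.82 to 6.23). For the not reduced members the medians were 3.76 RPM (3.58 to 3.87) and 6.19 RPM (6.11 to 6.38). Such intervals, here and below, are over windows, some of which overlap, and hold no error between libraries. Over all promoters H3K27me3 had a median of 1.66 RPM in EZH2+/+ and 0.943 RPM in EZH2-/-.

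**Figure D1:**
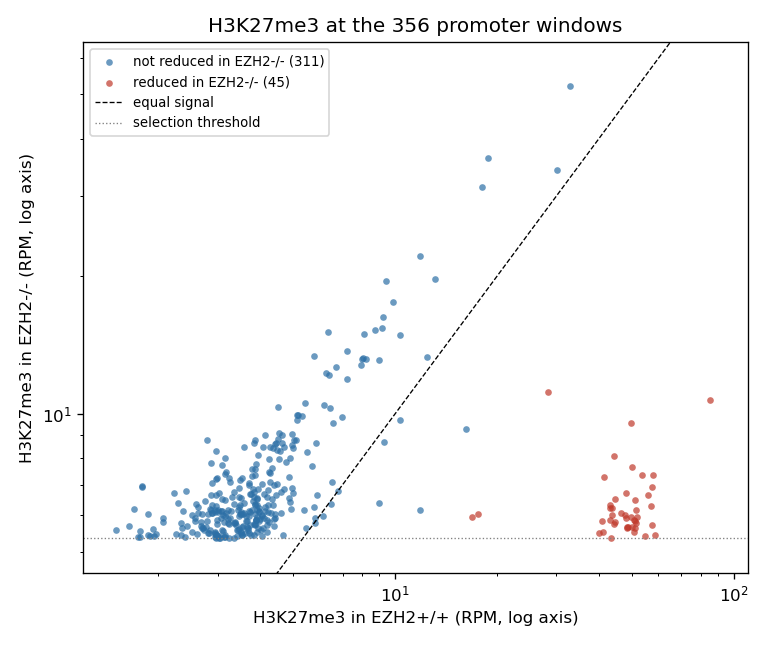
H3K27me3 in EZH2-/- (vertical) against EZH2+/+ (horizontal) at the 356 members, in RPM on log axes, each point being 1 promoter window and the mean of the replicate libraries. The 45 reduced members (red) form a group to the right of the line of equal signal, mostly around their EZH2+/+ median of 48.4 RPM, while most of the 311 not reduced members (blue) lie above that line.

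The selection has no gap at its border. Just inside were PRDM13, a neuronal transcription factor, at 2.42 log2 RPM (5.352 RPM), NUPR1L and AC011516.2 at 5.359 RPM, and AC083867.4 at 5.36 RPM. Just outside were PCDHGB5 at 5.351 RPM, CTC-543D15.3 and AC004791.2 at 5.349 RPM, and RP11-561O23.5 at 5.346 RPM. The 8 values lie well within the counting interval of a single window. The smallest margins over input were those of CH507-513H4.1 (1.01 log2 units), OR11H1 and RP11-555K2.4 (1.04 each) and LINC01410 (1.06).

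Developmental transcription factor genes made up 16 of the 45 reduced members by the lists used. HOX genes, which set position along the body axis, gave 8 members of 43 measured: HOXA3, HOXA6, HOXA7, HOXA9, HOXA10, HOXC9, HOXC12 and HOXD3. A list of other developmental transcription factor families gave 8 of 207, among them EN2, GSX1, LHX3, NKX2-1, NKX2-3 and TBX2. All 16 were reduced. Members were 1.05% of all promoters. Other promoters with as much H3K27me3 in EZH2+/+ were not counted by family, so these counts do not show that such genes keep more signal. Outside these lists, reduced members included HMX1, HMX2, FEZF2, PRDM12, PRDM13, MNX1, DMRTA2, NFIX, ONECUT3 and SKOR1, and the noncoding RNAs HOTAIR, HOXA-AS3 and TBX2-AS1. By Ensembl identifier, 28 of the 45 were protein coding and 17 lncRNA in GENCODE.

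At the 8 HOX members, H3K27me3 had a median of 54.5 RPM in EZH2+/+, 64.3 for EZH2-/+, 6.12 in EZH2-/- and 51.0 in EZH2-/- +EZH2. HOXC9 fell the most of all members on the log2 scale, with 58.6 RPM in EZH2+/+, 65.2 for EZH2-/+, 5.45 in EZH2-/- and 50.5 in EZH2-/- +EZH2. The EZH2-/- value alone stands apart in this gene, and the other 3 genotypes are within a narrow range. NFIX, a nuclear factor I family member, was at 54.6, 62.4, 5.42 and 46.7 RPM in the same order. NKX2-3, a homeobox gene of gut and spleen, was at 50.8, 62.2, 5.52 and 48.7 RPM. The uncharacterised RP1-170O19.24, inside the HOXA cluster, was at 57.4, 61.2, 5.72 and 52.9 RPM.

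The HOXA cluster was the densest group of reduced members. Between chr7:27144663 and 27177680 (GRCh38), 9 of 10 promoters were members, from HOXA-AS3 and HOXA6 to HOXA10 and HOXA9. The bounds are those of the outermost members, which raises this share. Several of these windows overlap, so the 45 reduced members amount to 31 loci. TBX2, TBX2-AS1 and RP11-332H18.5 on chromosome 17 are such a set, starting within 1 kb of each other, and NKX2-1, NKX2-1-AS1 and RP11-896J10.3 on chromosome 14 are another.

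Reduced members were among the promoters with the most H3K27me3 in EZH2+/+. Their lowest value was 16.9 RPM, above 95.7% of all promoters. Of the 253 promoters with at least 40 RPM in EZH2+/+, 42 were members, or 16.6%, against 45 of 1170 (3.85%) of those with at least 20 RPM. These 45 are members of either set and not the same as the reduced members. They include MGC39584, which is not reduced, and leave out CH17-125A10.2 and RP11-289H16.1, which are. A reduced member kept a median of 12.7% of its EZH2+/+ signal (9.3 to 39.5%). The 211 other promoters over 40 RPM in EZH2+/+ kept 6.45% (1.6 to 12.6%), with a median of 3.17 RPM in EZH2-/- against an input of 1.28 RPM. These shares follow in part from the selection on EZH2-/- signal and were not tested. LINC00960, CH17-125A10.2 and RP11-289H16.1 kept the most. LINC00960 went from 28.2 to 11.2 RPM with 2.84 RPM of input in EZH2-/-, and CH17-125A10.2 and RP11-289H16.1, whose windows overlap, went from 17.6 to 6.05 and from 16.9 to 5.95 RPM, with 2.07 and 1.96 RPM of input. LINC01410 had the highest EZH2+/+ signal of all promoters, 85.0 RPM, which fell to 10.7 RPM, with 5.16 RPM of input.

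The highest EZH2-/- signals belonged to the not reduced members, and 8 of the first 12 lay in the first 11 Mb of chromosome 21. MGC39584 on chromosome 21 (chr21:9811509-9816509) was first, with 32.9 RPM in EZH2+/+, 35.3 for EZH2-/+, 52.2 in EZH2-/- and 26.5 in EZH2-/- +EZH2. Its input was 6.09 RPM in EZH2+/+ and 5.48 in EZH2-/-, several times the promoter median of 1.52 RPM. Next came bP-21264C1.2 with 36.3 RPM in EZH2-/-, CH507-528H12.1 with 34.3, RP11-509A17.3 on chromosome 15 with 31.4, and bP-2171C21.3 with 22.2. The inputs at these 4 in EZH2-/- were 7.86, 13.1, 3.92 and 5.10 RPM. AC008103.3 on chromosome 22, bP-2189O9.3, AP003900.6, RP13-580B18.4, BAGE5, RP11-717F1.1 and CH507-216K13.2 completed the first 12, from 19.7 down to 15.1 RPM. All 12 were higher in EZH2-/- than in the other 3 genotypes, by 0.19 to 1.24 log2 units over EZH2+/+.

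Input over 2 RPM in EZH2-/- was found at 64 not reduced members (20.6%), at 3 reduced members (6.67%) and at 9.36% of all promoters. High input is usual where several near-identical copies of a sequence exist, and reads at such windows may come from another copy. The part of copy number in the signal was not tested. Input itself was the same in EZH2-/- and EZH2+/+ to within -0.02 log2 units at the median of the not reduced members (-0.05 to 0.02).

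Position set the not reduced members apart. Chromosome 19 held 119 of the 311 (38.3%) and 2 of the 45 reduced members, against 5.65% of all promoters. The first 5 Mb of annotated promoters on the acrocentric chromosomes 13, 14, 15, 21 and 22 held 59 not reduced members (19%), no reduced member and 1.32% of all promoters. In or next to these stretches 20 of 25 promoters between chr14:18593810 and 19923082 were members, 14 of 16 between chr15:20139294 and 21442882, 11 of 12 between chr21:8195120 and 10524053, and all 10 between chr22:15525658 and 15918300. Each of these intervals runs from its first to its last member window, so the members set the bounds and the shares are raised by this. Counting member windows no more than 500 kb apart as a cluster, 20 clusters of 5 or more members held 208 of the 356, or 58.4%. Chromosome 8 held 1 member.

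On chromosome 19 many not reduced members lay near zinc finger genes. Although genes named ZNF were left out by the rule, 82 of the 119 members there (68.9%) had a ZNF start site within 50 kb, against 17.3% of all promoters of that chromosome. Over all autosomes these shares were 32.8% of not reduced members, 2.72% of promoters and 0 of the 45 reduced members. The largest cluster, with 23 of 77 promoters between chr19:55833939 and 58442948, runs from the NLRP genes to the end of the long arm and includes ZFP28, ZIM2, USP29 and ZIK1. Another, with 12 of 14 promoters between chr19:54532778 and 54852976, is the receptor cluster of natural killer and myeloid cells. Both intervals are bounded by their own member windows, which raises the shares.

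Counted by family, all 7 KIR genes were members, with medians of 3.89 RPM in EZH2+/+, 3.83 for EZH2-/+, 5.88 in EZH2-/- and 3.69 in EZH2-/- +EZH2. Of the LILR genes, related receptors of myeloid cells, 4 of 10 were members, and of the NLRP genes, many of them expressed in oocytes, 5 of 14. The pregnancy-specific glycoproteins gave 5 of 10 (PSG1, PSG2, PSG3, PSG6 and PSG7), at 2.99 RPM in EZH2+/+ and 5.75 in EZH2-/-. The POTE genes gave 6 of 13, at 4.14 and 7.39 RPM, and TPTE, TPTE2 and TPTEP1 3 of 3, at 3.69 and 6.98 RPM. The salivary amylase genes AMY1A, AMY1B and AMY1C were all members, at 2.42 and 6.18 RPM. Genes of such families are near-copies of one another, and their windows cannot be counted as separate observations.

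Olfactory receptors gave 11 of 385, and OR2T1 was the highest of them, with 7.92 RPM in EZH2+/+, 9.33 for EZH2-/+, 12.8 in EZH2-/- and 7.53 in EZH2-/- +EZH2. Zinc finger genes not named ZNF gave 5 of 23 ZSCAN and 4 of 25 ZFP genes. Among the clustered protocadherins, adhesion proteins of neurons, 4 of 22 gamma genes were members and none of 15 alpha and 16 beta genes. ZIM2 was the only member of 30 imprinted genes, at 4.21 RPM in EZH2+/+ and 6.82 in EZH2-/-. Lists of 11 PRC2, 19 PRC1, 70 histone, 44 germline and 125 small RNA genes held no member, which at a share of 1.05% of promoters is no result about lists of this size. Clone-named loci, which are mostly uncharacterised transcripts, gave 189 of 13175 (1.43%).

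The largest gains were at ZSCAN2 and RP11-182J1.3, whose windows on chromosome 15 overlap almost entirely. ZSCAN2, a zinc finger protein, had 1.79 RPM in EZH2+/+, 3.73 for EZH2-/+, 6.95 in EZH2-/- and 4.53 in EZH2-/- +EZH2, a change of 1.90 log2 units from EZH2+/+ to EZH2-/-. RP11-488L18.10 went from 1.5 to 5.59 RPM (1.83 log2 units) and FLJ26245 from 1.70 to 6.18 RPM (1.80). At FLJ26245 the EZH2-/+ value, 4.78 RPM, was already near that of EZH2-/-.

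The direction of each set in EZH2-/-, and much of its level relative to the other genotypes, is fixed by the selection and the division, so the levels across genotypes are a description. All 45 reduced members passed the same signal and input thresholds in each of the other 3 genotypes. Of the 311 not reduced members, 43 (13.8%) passed them in EZH2+/+, where 12.6% of all promoters did. In EZH2-/+ the count was 58 (18.6%, all promoters 12.1%), and in EZH2-/- +EZH2 it was 39 (12.5%, all promoters 10.4%).

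H3K27me3 ChIP signal nevertheless exceeded input at most not reduced members in every genotype. The median excess over input was 1.37 log2 units in EZH2+/+ (304 of 311 above 0), 1.39 for EZH2-/+, 2.2 in EZH2-/- and 1.35 in EZH2-/- +EZH2 (311 of 311 above 0). Over all promoters it was 0.13 in EZH2+/+ and -0.63 in EZH2-/-. At the reduced members the excess was 5.46, 5.44, 2.35 and 5.23 log2 units in the same order of genotypes. H3K4me3 signal also exceeded input at the not reduced members, with medians of 3.02 and 1.47 RPM in EZH2+/+. How much of the H3K27me3 excess there is the mark itself was not tested.

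With the transgene induced, reduced members regained a median of 44.6 RPM and differed from EZH2+/+ by -0.08 log2 units (-0.16 to -0.04), or by 0.12 when values were centred on promoters with low signal. Not reduced members came back to 3.84 RPM, a difference of 0.05 from EZH2+/+, and 303 of the 311 were lower than in EZH2-/-. EZH2-/+ was 0.24 log2 units above EZH2+/+ at reduced members (45 of 45 higher) and 0.12 at not reduced members (207 of 311 higher). Input was also higher in EZH2-/+, by 0.21 log2 units at reduced members (39 of 45 higher) and 0.03 at not reduced members. The excess of H3K27me3 over input at reduced members was 5.46 log2 units in EZH2+/+ and 5.44 in EZH2-/+. RPM is a share of each library, so a rise in one set of windows can come with a fall elsewhere. Across 28958 promoters under the threshold in all 4 genotypes, the median change from EZH2+/+ to EZH2-/- was -0.42 log2 units, and across all 33883 it was -0.60. The not reduced members' median change was 0.81 (0.77 to 0.85), a value that the selection on high EZH2-/- signal and the division at -1 shape, so it says nothing about either shift.

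**Figure D2:**
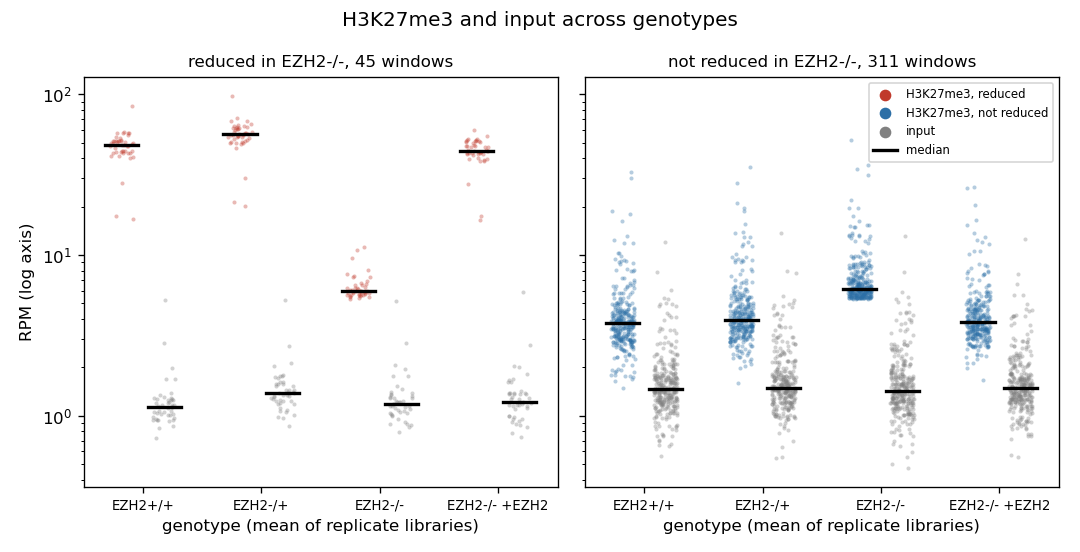
H3K27me3 (coloured) and input (grey) in RPM on a log axis at each member in the 4 genotypes, with a bar at the median of each group of points, and each point the mean of the replicate libraries. Reduced members (left, 45) are low only in EZH2-/-, with a median of 5.97 RPM, and not reduced members (right, 311) are highest there, with 6.19 RPM, while input stays level.

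EZH2 occupancy, measured in EZH2+/+ cells, differed between the 2 sets without overlap. The EZH2 values were not used in the selection, but the division uses EZH2+/+ H3K27me3, the mark that EZH2 lays down. The difference is therefore a description and no independent support for the division. Other promoters with as much H3K27me3 in EZH2+/+ were not compared for EZH2. Reduced members had 2.38 to 16.6 RPM of EZH2 with a median of 8.77, and not reduced members 0.00966 to 2.23 RPM with a median of 0.0858. The median of all promoters was 0.247 RPM. Over 2 RPM of EZH2 was found at 45 of 45 reduced members, at 1 of 311 not reduced members and at 3.03% of all promoters. The highest values were those of TBX2-AS1 (16.6 RPM), RP11-332H18.5 (15.1), TBX2 (14.9), a T-box factor of heart and limb, and PRDM12 (12.2). FO538757.3, at 2.23 RPM, was the highest of the not reduced members, and BX255923.3, at 2.38 RPM, the lowest of the reduced ones. The EZH2 column stems from 1 library and a crosslinked protocol, so no error can be put on these values.

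Base composition separated the sets as well, although with overlap. In the 5 kb windows, read from the GRCh38 sequence, reduced members had a median GC content of 57.8% (56.6 to 61.0) and not reduced members 46.6% (45.8 to 47.5), with 47.0% over all promoters. The ratio of observed to expected CG dinucleotides was 0.652 at reduced members (0.608 to 0.697), 0.281 at not reduced members (0.267 to 0.301) and 0.308 over all promoters. Among members with a matched RefSeq promoter of 300 bases, the motif GGGCGG, searched on both strands, was present in 19 of 27 promoters of reduced members (70.4%), in 13 of 58 of not reduced members (22.4%) and in 45% of all 35116 RefSeq promoters. CGCGCG was in 14.8%, 8.62% and 16.4% respectively, TATAAA in 7.41%, 12.1% and 11.5%, and CACGTG in 3.70%, 12.1% and 7.26%. These motifs can overlap CG dinucleotides, and a match says only that the letters are there.

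**Figure D3:**
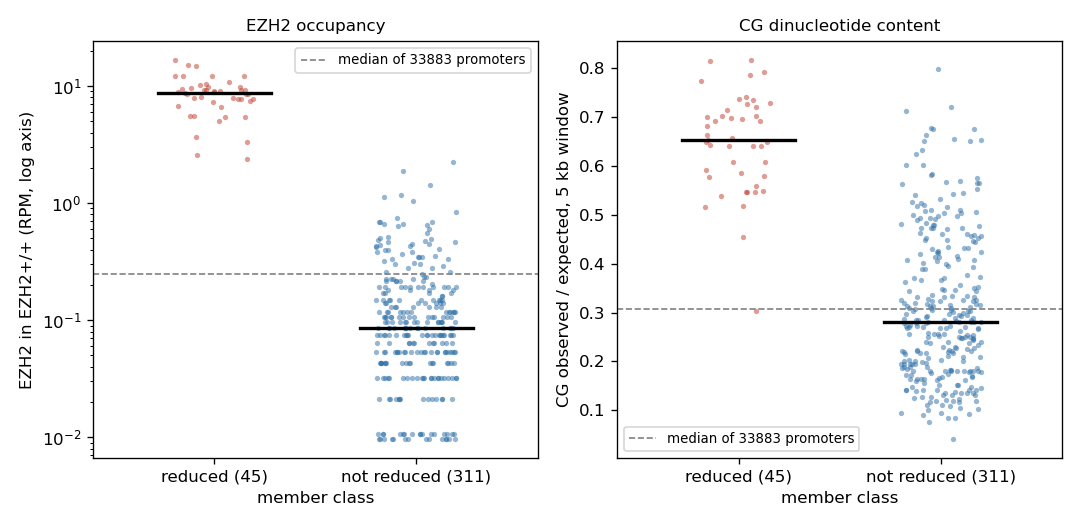
EZH2 signal in EZH2+/+ (left, RPM, log axis) and observed over expected CG dinucleotides in the 5 kb window (right) for the 45 reduced and 311 not reduced members, with bars at medians and the median of all 33883 promoters as a dashed line. EZH2 values of the sets do not overlap, and CG values overlap partly with medians of 0.652 and 0.281.

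Other histone marks at the members were also unlike those of promoters at large. H3K4me3 in EZH2-/- was over 5.35 RPM at 27 of 45 reduced members and at 26 of 311 not reduced members, against 36.6% of all promoters. Reduced members went from a median of 9.44 RPM of H3K4me3 in EZH2+/+ to 6.36 in EZH2-/-, and from 4.5 to 5.60 RPM of H3K4me1. Their median change was -0.60 log2 units in H3K4me3 (-0.79 to -0.47) against -0.27 over all promoters, and 0.31 in H3K4me1 (0.24 to 0.39) against 0.04. The EZH2+/+ H3K4me3 libraries were the shallowest, which limits this comparison.

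Not reduced members had little of the active marks. H3K4me1 in EZH2-/- was below input at 292 of 311 (93.9%), at no reduced member and at 30.7% of all promoters. H3K27ac in EZH2-/- was below input at 276 not reduced members (88.7%), at 39 reduced members (86.7%) and at 26.2% of all promoters. H3K27ac rose by 1 log2 unit or more from EZH2+/+ to EZH2-/- at 1 reduced and 10 not reduced members, fewer in proportion than the 5.79% of all promoters. The median H3K27ac change was 0.02 at reduced members (-0.25 to 0.30) and -0.08 at not reduced members (-0.17 to 0.01), and 0.21 over all promoters.

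RNA gives a replicated measure that the selection did not use. All 356 members were in the RNA table, and 171 of them had no read in any library. A mean of at least 0.1 RPM over the 12 libraries was required for testing. It was reached by 17 of 45 reduced members (37.8%) and 80 of 311 not reduced members (25.7%), against 57.4% of all promoters. Only 1 reduced and 52 not reduced members reached a mean of 1 RPM (14.9% of members and 42.7% of promoters). Counts below are of tested members, and passing the filter depends in part on the genotype in which a gene is high.

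From EZH2+/+ to EZH2-/-, 15 of the 97 tested members rose and 20 fell (limma, adjusted p under 0.05), where 12.8% of 20689 tested genes rose and 18.9% fell. Without EZH2+/+ library 2, or without EZH2-/- library 2, 12 members fell. Among reduced members 6 of 17 rose (LINC01410, HOXA9, HOXA10, TBX2, DMRTA2 and PRDM13) and 1 fell (PRDM12). Genes such as HOXA10 and TBX2 reached the required mean only through EZH2-/- libraries, and 28 of the 45 reduced members were not tested, so this share is no measure of the reduced members as a set. Among not reduced members 9 of 80 rose and 19 fell. In bulk RNA a change in the level per cell and in the share of cells expressing a gene cannot be told apart. Among marker lists, 3 of 5 mesoderm, 3 of 5 endoderm, 3 of 4 mesenchyme and 1 of 4 trophectoderm genes rose, and 2 of 4 neuroectoderm genes (PAX6 and SOX1) fell. The mesenchyme sums of the 2 genotypes overlap (53.7 to 114 RPM in EZH2+/+ and 33.2 to 223 in EZH2-/-). The part of other cell types in these changes was not tested.

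HOXA10, a posterior HOX gene, had no read in the 3 EZH2+/+, 3 EZH2-/+ and 3 EZH2-/- +EZH2 libraries, and 0.106, 2.03 and 1.48 RPM in EZH2-/-. Every EZH2-/- library lay above all others, though 1 of them only barely. Against a floor of 3 reads per library, the EZH2-/- mean was at least 17.4-fold higher than EZH2+/+ (limma log2 change of 2.87 ± 0.64, SE, adjusted p = 0.00529). The gene passed the filter on these EZH2-/- reads alone, which limits what its p-value can say. HOXA9, TBX2 and DMRTA2, given below, also had few or no reads in EZH2+/+.

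HOXA9, its neighbour, was at 0.022, 0 and 0 RPM in EZH2+/+ and at 0.088, 0.976 and 0.950 RPM in EZH2-/- (2.30 ± 0.53, adjusted p = 0.00613). As reads were counted without regard to strand and the HOXA10 and HOXA9 genes overlap, the 2 rows are not separate observations. HOXA7 was at 0.222, 0.203 and 0.066 RPM in EZH2+/+ and at 0.211, 0.432 and 1.28 RPM in EZH2-/-. Its groups overlap, and the change of 1.27 ± 0.46 did not pass the test (adjusted p = 0.0512). In the same contrast with the replicate block, HOXA7 passed (adjusted p = 0.0457), as did MNX1 (adjusted p = 0.0309).

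DMRTA2, a doublesex-related factor of the developing cortex, was at 0.0444, 0.0254 and 0 RPM in EZH2+/+ and 0.405, 0.788 and 0.534 RPM in EZH2-/- (2.35 ± 0.29, adjusted p = 0.000142). PRDM13, a factor of spinal and retinal interneurons, was at 0.0888, 0.127 and 0 RPM in EZH2+/+ and 0.493, 0.845 and 0.712 in EZH2-/- (2.16 ± 0.32, adjusted p = 0.000446). In both genes the groups do not overlap. TBX2, named for its EZH2 signal, had no read in EZH2+/+ and 0.0704, 0.601 and 0.416 RPM in EZH2-/-, at least 5.22-fold higher (adjusted p = 0.00936). It was not among the calls without EZH2-/- library 2 or 3.

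PRDM12 went the other way, from 0.200, 0.152 and 0.175 RPM in EZH2+/+ to 0.0352, 0.0188 and 0.0297 RPM in EZH2-/- (-1.11 ± 0.34, adjusted p = 0.0245). This call was lost without EZH2+/+ library 2 or 3 (adjusted p = 0.054 and 0.057 by limma) and without EZH2-/- library 2 or 3 (0.08 and 0.0535). Levels of all these reduced genes stayed low, with an EZH2-/- mean of at most 1.81 RPM, that of LINC01410, among those that rose.

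Not reduced members that rose had as much or more H3K27me3 in EZH2-/- as in EZH2+/+, with 1 exception. The selection and the division set this direction: 302 of all 311 not reduced members were higher in EZH2-/-, whatever their RNA did. The H3K27me3 values beside the RNA are therefore a description, and no link between the 2 was tested. PDGFRA, a growth factor receptor of mesodermal and mesenchymal cells, rose from 3.71, 4.56 and 2.05 RPM in EZH2+/+ to 17.9, 25.9 and 14.8 in EZH2-/- (2.5 ± 0.40, adjusted p = 0.00068), while its H3K27me3 went from 2.99 to 5.44 RPM. CYP2E1, a liver cytochrome P450, rose from 0.0222, 0 and 0.0219 RPM to 0.369, 0.845 and 2.67 RPM (3.13 ± 0.50, adjusted p = 0.000708), with H3K27me3 at 3.67 and 5.63 RPM. At neither gene did the 2 groups of libraries overlap.

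ZSCAN2 rose from 9.21, 9.71 and 7.15 RPM in EZH2+/+ to 31.0, 31.8 and 32.5 in EZH2-/- (1.87 ± 0.24, adjusted p = 0.000173), and it is also the member whose H3K27me3 rose the most. EZH2-/+ libraries lay between, at 17.5, 22.3 and 11.7 RPM, as did those of EZH2-/- +EZH2 at 23.3, 19.1 and 14.3 RPM. RP11-182J1.3, whose window shares most of that of ZSCAN2, showed the same order at lower levels and may share its reads. The exception, CH507-513H4.1 on chromosome 21, had less H3K27me3 in EZH2-/- (6.4 RPM against 8.96), and its RNA rose from 0.799, 0.913 and 1.27 to 4.66, 5.58 and 7.15 RPM (2.43 ± 0.26, adjusted p = 5.78e-05). CH507-528H12.1, on the same chromosome, gave nearly equal values at each library, and reads of the pair may be shared.

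Zinc finger and protocadherin genes were among the not reduced members that fell, and they were chosen after their values were seen. ZFP90 fell from 21.7, 27.6 and 21.2 RPM in EZH2+/+ to 8.29, 6.89 and 7.93 in EZH2-/- (-1.59 ± 0.21, adjusted p = 0.00022), and ZFP62 fell by 1.10 ± 0.18 (adjusted p = 0.000785). ZFP28 went from 0.266, 0.583 and 0.459 to 0.0176, 0 and 0.0594 RPM (-2.00 ± 0.36, adjusted p = 0.00145). ZSCAN18 and ZSCAN31 fell too, but their calls were lost with median ratio scaling. The 4 gamma protocadherins, at 53.2 to 74.2 RPM in EZH2+/+, were at 23.3 to 27.6 RPM in EZH2-/-. Gamma protocadherin transcripts share their last exons, so these 4 rows largely count the same reads. ZFP90, ZFP62, ZFP28 and the 4 protocadherins were also lower in EZH2-/- +EZH2 than in EZH2+/+ (limma, adjusted p under 0.05). The calls of ZFP62 and ZFP90 in that contrast were lost without some single libraries. Of these genes, ZFP90 alone was lower in EZH2-/- than in EZH2-/- +EZH2, and only with the replicate block. H3K27me3 at PCDHGB6 was 4.68 RPM in EZH2+/+ and 5.45 in EZH2-/-.

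**Figure D4:**
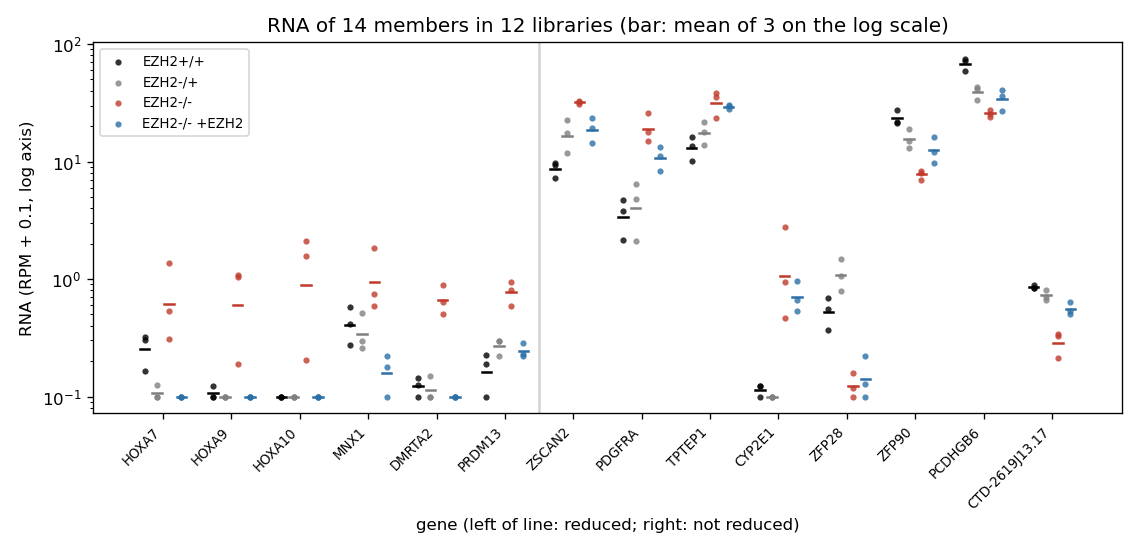
RNA level (RPM + 0.1, log axis) of 14 members in the 12 libraries, each point 1 library and each bar the mean of 3 on the log scale. Left of the line are 6 reduced members, which are highest in EZH2-/- and near the floor in EZH2-/- +EZH2, and right of it 8 not reduced members, of which ZSCAN2, PDGFRA, TPTEP1 and CYP2E1 rose and the other 4 fell from EZH2+/+ to EZH2-/-.

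Against EZH2-/- +EZH2, the cells of the same line with the transgene on, 6 of 97 members were higher in EZH2-/- and none lower, where 2.84% of tested genes were higher and 0.556% lower. The 6 were reduced members: HOXA7, HOXA9, HOXA10, MNX1, DMRTA2 and PRDM13, out of 17 tested. HOXA10 reached the required mean only through EZH2-/- libraries, and HOXA7 and DMRTA2 also had no read in EZH2-/- +EZH2. This share too is therefore no measure of the reduced members as a set. HOXA7, HOXA9 and HOXA10 were not called with a pseudocount of 1 RPM, and HOXA9 and HOXA10 were not called without a filter or with only the 2 genotypes fitted. With a mean of 1 RPM required, no member passed. None of the 80 not reduced members passed in limma without a replicate block, although some passed with it, as given below. Without the block 12 had an unadjusted p under 0.05, as did 3486 of the 20689 tested genes. MNX1, a motor neuron homeobox gene, had 0.493, 1.75 and 0.653 RPM in EZH2-/- and 0.0771, 0 and 0.120 RPM in EZH2-/- +EZH2 (2.47 ± 0.46, adjusted p = 0.0139). DMRTA2 and HOXA7 had no read in the 3 EZH2-/- +EZH2 libraries, which puts EZH2-/- at least 6.23-fold and 6.92-fold higher (adjusted p = 0.00153 and 0.0199).

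The library numbers pair the samples, and with them as a replicate block 16 members were higher in EZH2-/- (6.32% of tested genes) and 4 lower (3.23%). All 6 above were among the 16, and the others included TBX2, HOXA3, NFIX and LINC01410 of the reduced members and ZSCAN2 and PDGFRA of the not reduced ones. The count of 6 was 1 without EZH2-/- library 2, 2 without EZH2-/- library 3 and 2, 2 and 3 without EZH2-/- +EZH2 library 1, 2 and 3.

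The other contrasts gave few calls among members. From EZH2+/+ to EZH2-/+, 1 member was higher (RP11-182J1.3, with 0.179% of tested genes higher) and 4 were lower, all gamma protocadherins (0.986% lower). With the replicate block 3 were higher (0.72% of tested genes). The 4 lower calls were all lost with median ratio scaling, without a filter or with only those 2 genotypes fitted. From EZH2+/+ to EZH2-/- +EZH2, 7 members were higher and 10 lower, where 3.36% and 6.85% of tested genes were, and 11 were higher with the replicate block (6.22% of tested genes). The 7 were CH507-528H12.1, TPTEP1, ZSCAN2, RP11-182J1.3, CH507-513H4.1, CYP2E1 and PDGFRA, none of them a reduced member and all also higher in EZH2-/-. The 10 lower were LINC00960, a reduced member, and 9 not reduced members, among them ZFP90, ZFP62, ZFP28 and the 4 gamma protocadherins. The contrasts of EZH2-/- and of EZH2-/- +EZH2 with EZH2+/+ share the EZH2+/+ libraries. TPTEP1, a transcribed pseudogene chosen after its values were seen, was at 10.0, 13.5 and 16 RPM in EZH2+/+, at 38.4, 23.4 and 35.4 in EZH2-/- and at 29.5, 30.01 and 27.9 in EZH2-/- +EZH2.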

How the data were processed

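ChIP-seq and RNA-seq of H9 ESCs of 4 genotypes were used. The authors trimmed reads (Trim Galore 0.4.0), aligned them to GRCh38 (Bowtie2 2.2.5 for ChIP, TopHat2 2.0.12 for RNA) and quantified windows and genes in SeqMonk. The deposited values are log2 RPM, without length correction, ChIP replicates averaged and empty rows set to 0.9 of a read, here taken as 0 reads. RNA counting ignored strand. Members, gene lists and the division at a log2 change of -1 were chosen with earlier results of these data known.

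ChIP values were described by medians with binomial 95% intervals over windows, which hold no error between libraries and count overlapping windows as separate. RNA was tested with limma 3.58.1 (R 4.3.3; moderated test with trend, 4 genotypes, two-sided, Benjamini-Hochberg adjustment, 0.05) on log2(RPM + 0.1) at a mean of 0.1 RPM or more, a scale that understates changes of low genes. The script was tested on simulated data. Reads recovered from the values were whole (within 0.1) for 100% of values under 1000 reads. Same-numbered libraries deviated together in 18 of 18 pairs (mean correlation 0.416, lowest 0.127), so the numbers pair the samples. Genes were named by largest RNA change, signal, H3K27me3 change, EZH2 signal or fixed list. Alternatives were pseudocount, filter, scaling, block, genotypes fitted, thresholds, centring and leaving out each RNA library. The shared windows of neighbouring genes were kept.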

Additional observations from a re-analysis of the deposited data

How the results depend on the processing

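Moving the H3K27me3 threshold to 2 log2 RPM gave 964 members and moving it to 3 gave 71. With a pseudocount of 1 RPM, the median change over members was 0.65 for H3K27me3 from EZH2+/+ to EZH2-/- (0.77 as reported), 0.64 against EZH2-/- +EZH2 (0.76), -0.35 for H3K4me3 (-0.47) and -0.12 for H3K4me1 (-0.34). Centred on promoters of low signal, these were 1.19 and 0.96 for H3K27me3 and -0.15 for H3K4me3. The same centring gave -0.22 for H3K27ac (-0.07), 0.32 for EZH2-/+ against EZH2+/+ (0.15), 0.22 for EZH2-/- +EZH2 against EZH2+/+ (0.01), and turned the latter from -0.08 to 0.12 at reduced members.

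In RNA, a mean of at least 1 RPM left 7 members higher in EZH2-/- than EZH2+/+ and 0 higher than EZH2-/- +EZH2, with fewer genes tested. The replicate block gave 16 higher and 4 lower against EZH2-/- +EZH2, 3 higher in EZH2-/+ and 11 higher in EZH2-/- +EZH2 than EZH2+/+, and it moved no other count of members by more than 1.5 times. For EZH2-/+ the 1 higher call was 0 with a pseudocount of 1 RPM, without a filter or with only 2 genotypes, and 2 with median ratio scaling. All 4 lower calls were lost without a filter, where 2 other members were called (CH17-125A10.2 and CTD-2561J22.5). No member was lower with that scaling or with only 2 genotypes. The cause of these shifts was not tested. Leaving out single libraries gave 12 to 17 higher and 12 to 16 lower from EZH2+/+ to EZH2-/-, where the lowest count of fallen members, 12, came without EZH2+/+ or EZH2-/- library 2. It gave 1 to 8 higher and 0 to 0 lower against EZH2-/- +EZH2, 0 to 2 higher and 0 to 7 lower in EZH2-/+, and 4 to 7 higher and 5 to 10 lower in EZH2-/- +EZH2 against EZH2+/+. Depth limits what RNA can show: 171 members had no read in any library, which does not separate low from absent transcription.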

Other observations

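Promoters that the selection left out by name also passed its thresholds. Of 529 ZNF genes, which encode zinc finger proteins, 157 passed (29.7%), and 120 of these lie on chromosome 19. All 157 had more H3K27me3 in EZH2-/- than in EZH2+/+, with medians of 3.40 RPM in EZH2+/+, 3.51 for EZH2-/+, 6.36 in EZH2-/- and 3.63 in EZH2-/- +EZH2, and a median EZH2 signal of 0.0858 RPM. All 9 DUX4 features and 19 of 26 USP17 features (73.1%), both repeated gene arrays, passed as well. On the X chromosome 42 of 1086 promoters passed (3.87%), among them 3 that were reduced.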
